A study of Rattus norvegicus with 9 samples.

Results

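The genes described here are 9 genes of the p53 response and of cell-cycle arrest: Cdkn1a, Cdkn1b, Cdkn2a, Cdkn2b, Mdm2, Ccng1, Gdf15, Gadd45a and Bax. They were taken by symbol from tables of 32883 rat genes, and each symbol matched 1 row. After a filter on low counts, 8 of them were tested among 14089 genes, and Cdkn2a was not. RNA-seq was performed on bulk liver from 9 rats, with 3 livers in each of 3 groups, and the study used male Sprague-Dawley rats aged 8 to 11 weeks. Normal livers came from rats for which no operation, lipopolysaccharide (LPS) or circulation is named. Rats of both ACLF (acute-on-chronic liver failure) groups shared bile duct ligation (BDL) for 21 days, which causes secondary biliary cirrhosis, and an intraperitoneal LPS injection of 0.25 mg/kg. Beginning 1 h after LPS, their whole blood was circulated for 2 h outside the body, under isoflurane and heparin. In the empty group the circuit held neither cells nor beads. In the UTOpiA group it held beads for granulocyte and monocyte/macrophage adsorption (GMA), followed by alginate capsules of iHLCs, which are hepatocyte-like cell aggregates made from gene-edited human iPSCs. Livers of both groups were collected from rats still alive at 24 h after LPS, so that these groups hold survivors only, and early mortality in the empty group was high. The effects of ligation, LPS and circulation cannot be told apart in the comparison with normal livers. The comparison of UTOpiA with the empty group asks how the loaded circuit altered these genes.

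p53 is a transcription factor that is stabilised after DNA damage and other stress, and it switches on genes that halt the cell cycle, repair DNA or start apoptosis. Its best known target, Cdkn1a, encodes p21, an inhibitor of cyclin-dependent kinases (CDKs) that holds cells before S phase, and in injured liver p21 limits the division of hepatocytes. Mdm2, another target, encodes the ubiquitin ligase that degrades p53 and so closes a feedback loop. Cdkn1b, Cdkn2a and Cdkn2b also encode proteins that hold CDKs in check but are largely driven by other signals, among them TGF-beta for Cdkn2b.

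Upstream sequence is shown for the 3 of these genes whose window held a p53 half-site consensus, the decamer that p53 binds in pairs. The windows are the 250 bases before the annotated start, on the strand of the gene, from RefSeq on the GRCr8 build, and the decamer is in capitals. RefSeq entries were found for 8 of the 9 genes. The consensus is a palindrome, so that both strands were searched, and 6.64% of 33465 such windows of all genes held it. A full site of 2 exact decamers at most 13 bases apart was held by 0.0388%, and by none of the 3 windows below. Decamers with a mismatch were not counted. Such a near match lies right after the capitals in Cdkn1a, and another right before them in Ccng1. The exact decamer began 201 bases before the start in Cdkn1a (chr20:7150682-7150931, plus strand), 232 bases before it in Ccng1 (chr10:25684877-25685126, minus strand) and 48 bases before it in Gadd45a (chr4:97486800-97487049, minus strand). A match is a description of letters only, and binding was not measured.
Cdkn1a: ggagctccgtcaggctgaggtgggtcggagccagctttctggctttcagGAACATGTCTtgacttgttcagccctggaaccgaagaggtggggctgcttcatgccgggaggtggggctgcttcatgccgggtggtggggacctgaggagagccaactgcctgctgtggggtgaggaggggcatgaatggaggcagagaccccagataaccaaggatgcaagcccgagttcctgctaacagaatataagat
Ccng1: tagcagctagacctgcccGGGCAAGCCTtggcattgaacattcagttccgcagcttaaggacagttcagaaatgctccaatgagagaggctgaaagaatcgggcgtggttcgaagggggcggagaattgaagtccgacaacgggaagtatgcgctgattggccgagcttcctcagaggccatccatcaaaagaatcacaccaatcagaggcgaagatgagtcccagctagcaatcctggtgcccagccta
Gadd45a: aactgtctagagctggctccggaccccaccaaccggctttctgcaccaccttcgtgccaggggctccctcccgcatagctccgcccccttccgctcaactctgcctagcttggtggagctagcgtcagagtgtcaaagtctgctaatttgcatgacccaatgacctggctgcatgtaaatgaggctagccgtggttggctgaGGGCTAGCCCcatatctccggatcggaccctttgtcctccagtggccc

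Between 14241172 and 17321677 reads were counted per library. The share of reads from Alb, the hepatocyte gene for albumin, lay between 13.34 and 14.91% in the normal group and between 1.54 and 3.91% in the ACLF groups. Empty replicate 2 stood apart: its counts differed from those of empty replicates 1 and 3 with a chi-square of 212 and 164 per degree of freedom, against 43.8 between the latter. Values that it carries are given with and without it. Fold changes below were estimated from counts with TMM scaling, under which the median log2 change of all genes was 0.045 for empty versus normal. In TPM, the transcript abundance scaled to length and library total, the same median was 0.44 on the log2(TPM + 1) scale, so that ratios of TPM are larger than the fold changes. A gene was called at an adjusted p under 0.05 and a change above 2-fold by edgeR's quasi-likelihood test with Benjamini-Hochberg adjustment over all genes tested. Of the genes called in empty versus normal, 65.1% were higher with TMM scaling and 82.3% by limma on log2(TPM + 1).

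Cdkn1a and Cdkn2b rose in ACLF livers of the empty group, 10.7-fold and 4.35-fold over normal livers. These 2 of 8 genes were called higher and 0 were called lower, while 20.7% of all genes tested were called higher and 11.1% lower. Cdkn1b and Ccng1 also had an adjusted p under 0.05, at less than 2-fold, which made 4 of 8 higher at any fold beside 26.9% of all genes, and 21.5% of all genes were lower by that rule. All 8 estimates were above 0, with a median log2 fold change of 0.81, against 0.045 for all genes. Without empty replicate 2, 7 of 8 were above 0 and the median was 0.49. In CPM, the counts scaled to normalised library size, the empty and normal livers did not overlap for 5 of 8 genes, all higher, a separation seen in 32.4% of all genes. On log2(TPM + 1), limma called 4 of the genes higher, with Cdkn1b and Ccng1 added, beside 24% of all genes by that method.

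Between UTOpiA and empty livers, edgeR called 0 of the 8 genes, and DESeq2 and limma called 0 as well. Over all genes edgeR called 0 higher and 0 lower (0% each), while DESeq2 called 51 higher (0.352%) and 74 lower (0.511%). The study reported more genes in each direction for this comparison, with DESeq2 and the same thresholds. The reason for the difference was not tested. At an unadjusted p under 0.05, 3 of the 8 genes were lower in UTOpiA (Ccng1, Gdf15 and Bax) and 0 were higher, beside 4.56% of all genes lower and 5.77% higher. The 8 estimates were all below 0, with a median of -0.43 against 0.001 for all genes, but that of Cdkn2b was -0.01 and became 0.69 without empty replicate 2. Without that liver 7 of 8 estimates were below 0 and the median was -0.295. UTOpiA livers lay below empty livers without overlap for 3 of 8 genes, Ccng1, Gadd45a and Bax, and this was so for 5.97% of all genes. The higher values in the empty group and the lower values in UTOpiA rest on the same 3 empty livers and are not independent of each other.

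In UTOpiA livers Cdkn1a and Cdkn2b remained called above normal livers, at 6.20-fold and 4.31-fold. With Cdkn1b, 3 of 8 genes had an adjusted p under 0.05 and were higher. All genes tested were called higher in 18.2% and lower in 6.81%, and at any fold the shares were 23.3% and 16.2%. The same 3 genes separated UTOpiA from normal livers in CPM, a separation upward seen in 30.8% of all genes. The other 5 genes had estimates between -0.60 and 0.18 on the log2 scale, and none of them passed.

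**Figure D1:**
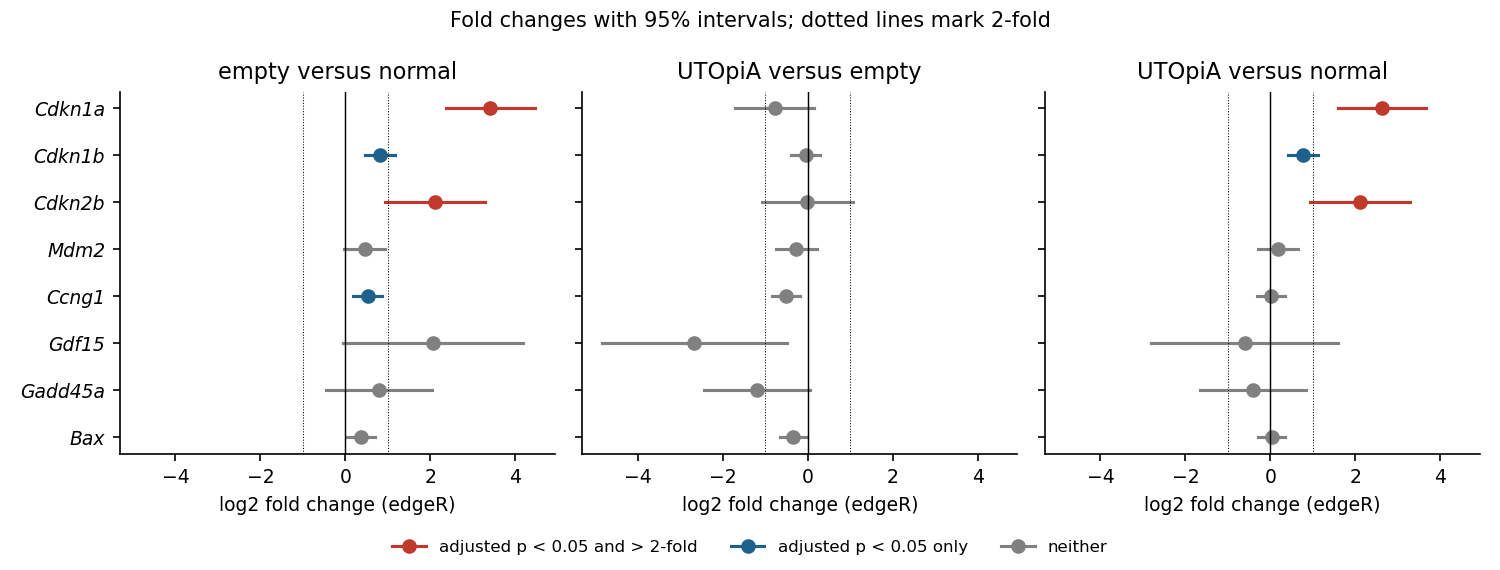
Log2 fold changes of the 8 tested genes from edgeR with 95% intervals, for empty versus normal, UTOpiA versus empty and UTOpiA versus normal livers (3 livers per group). Red points passed an adjusted p of 0.05 and 2-fold, blue points the adjusted p only, and grey points neither. Cdkn1a and Cdkn2b are red in both comparisons with normal livers, and no point of UTOpiA versus empty is coloured.

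Cdkn1a (ENSRNOG00000000521, chr20:6351458-6358864, plus strand, rn6) encodes p21 and carries the first of the decamers shown above. Its level was 3.20, 1.51 and 2.44 TPM in the 3 normal livers. It was 20.5, 45.3 and 45.0 TPM in the empty livers and 11.6, 18.0 and 23.5 TPM in the UTOpiA livers. Every ACLF liver was above every normal liver, and among ACLF livers the highest UTOpiA liver exceeded the lowest empty liver. The group means were 2.38 ± 0.850 TPM in normal, 37.0 ± 14.2 TPM in empty and 17.7 ± 5.98 TPM in UTOpiA livers (SD, n = 3 each).

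The log2 fold change of Cdkn1a from normal to empty livers was 3.42 ± 0.47 (SE; 95% interval 2.36 to 4.47; edgeR adjusted p = 0.000583). On log2(TPM + 1) it was 3.00 above the median shift of all genes. Without empty replicate 2 it was 3.21 (edgeR adjusted p = 0.00118). From normal to UTOpiA livers it was 2.63 ± 0.46 (edgeR adjusted p = 0.00254). The difference between UTOpiA and empty livers was -0.78 ± 0.41 with an interval of -1.71 to 0.14 (edgeR adjusted p = 0.544), so that a 2-fold decrease lay inside the interval and a change of 0 did as well. With 1 library removed it was -0.58 (empty replicate 2), -0.54 (UTOpiA replicate 1) or -1.27 (UTOpiA replicate 3), and it was not called in any of these fits. An exact permutation test of TPM, two-sided, gave p = 0.2 for that difference. With 3 livers against 3 it cannot give less than 0.1, the value reached by Cdkn1a in both comparisons with normal livers.

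**Figure D2:**
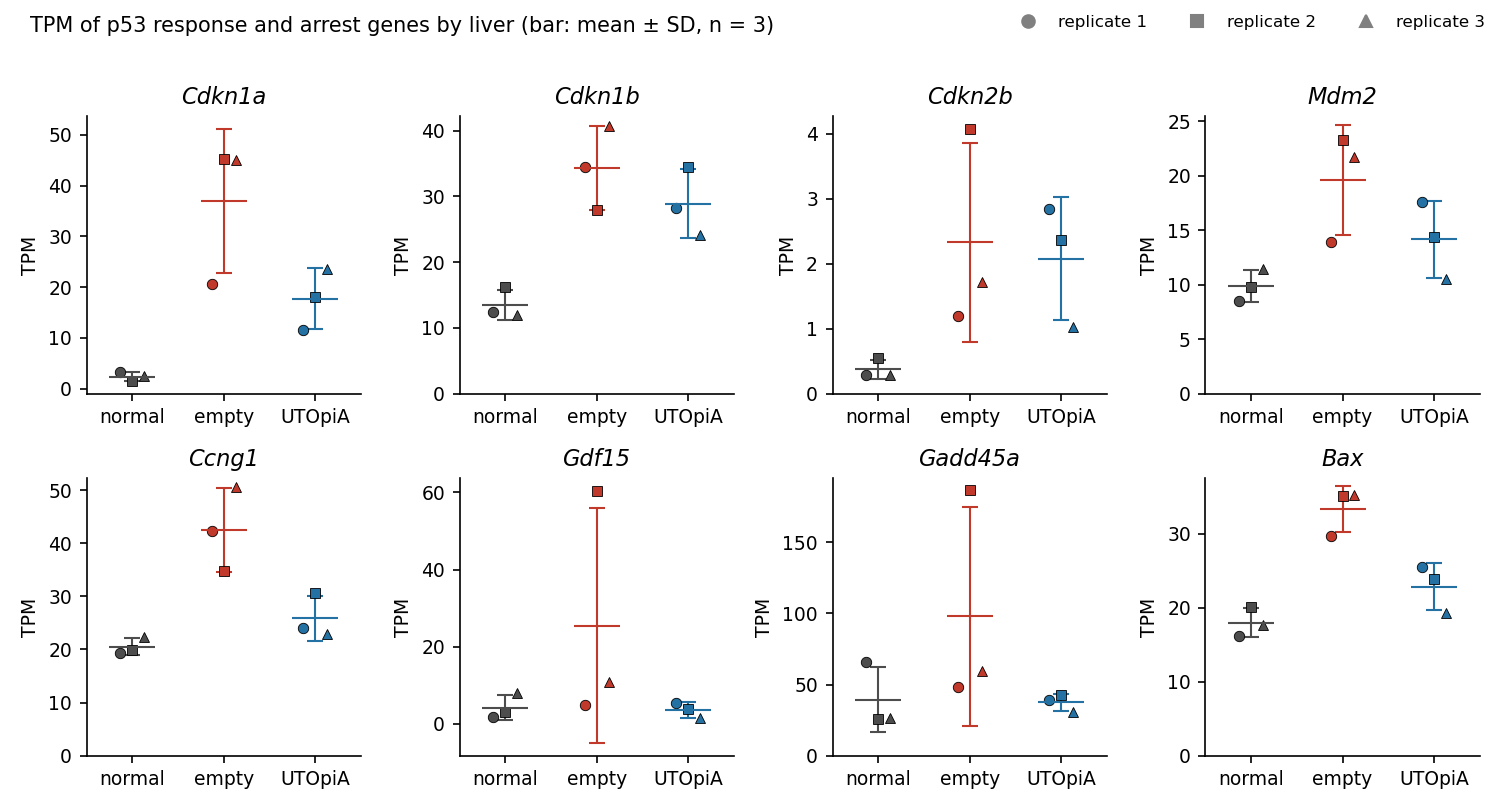
TPM of the 8 tested genes in each liver, with bars for mean ± SD of 3 livers per group and a marker shape for each replicate number. Cdkn1a runs from 1.51 to 3.20 TPM in normal livers and from 11.6 to 45.3 TPM in ACLF livers, and empty replicate 2 is far above the other livers for Gdf15 and Gadd45a.

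Cdkn1b (ENSRNOG00000007249, chr4:168689163-168693964, plus strand) encodes p27, the CDK inhibitor that keeps resting cells out of the cycle. It was at 12.5, 16.2 and 12.0 TPM in normal livers, 34.4, 28.0 and 40.7 TPM in empty livers, and 28.2, 34.5 and 24.1 TPM in UTOpiA livers. Normal livers lay below all ACLF livers, and the ACLF groups overlapped. It was 1.77-fold higher in empty than in normal livers (log2 0.82 ± 0.16, edgeR adjusted p = 0.0027) and 1.70-fold higher in UTOpiA than in normal livers (0.77 ± 0.16, edgeR adjusted p = 0.0052). UTOpiA and empty livers differed by -0.05 on the log2 scale, with an interval of -0.41 to 0.30.

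Levels of p21 and p27 transcripts were also set against each other. In normal livers the ratio of Cdkn1a to Cdkn1b TPM was 0.257, 0.0934 and 0.204. It was 0.597, 1.62 and 1.11 in empty livers and 0.411, 0.523 and 0.979 in UTOpiA livers. The lowest ratio among ACLF livers was above the highest among normal livers, with an exact permutation p of 0.1 for each group against normal and 0.2 for UTOpiA against empty. Cdkn1a made up 8.32 to 19.8% of the summed TPM of the 3 Cip/Kip genes (with Cdkn1b and Cdkn1c) in normal livers, 36.9 to 61.1% in empty livers and 28.5 to 48.8% in UTOpiA livers. This share separated normal from ACLF livers and overlapped between the ACLF groups. Ranked by mean TPM among the 9 genes, Cdkn1a was the seventh in normal, the third in empty and the fifth in UTOpiA livers. In the empty group its mean was next to those of Cdkn1b (34.4 ± 6.36 TPM) and Bax (33.4 ± 3.12 TPM), and these 3 levels did not differ beyond their spread.

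Cdkn2b (ENSRNOG00000006735, chr5:107845951-107858104, minus strand) encodes p15INK4b, an inhibitor of CDK4 and CDK6. It was low in every group, at 0.288, 0.542 and 0.288 TPM in normal livers. It reached 1.19, 4.08 and 1.72 TPM in empty livers and 2.85, 2.36 and 1.02 TPM in UTOpiA livers, from 53 to 212 counts per ACLF liver. The ACLF livers were all above the normal livers, with empty replicate 2 highest. Its log2 fold change was 2.12 ± 0.53 in empty versus normal livers (edgeR adjusted p = 0.00875) and 2.11 ± 0.53 in UTOpiA versus normal livers (edgeR adjusted p = 0.0119). Without empty replicate 2 the former was 1.41 (edgeR adjusted p = 0.0194). UTOpiA and empty livers differed by -0.01 with an interval of -1.08 to 1.06 (edgeR adjusted p = 0.994).

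Cdkn2a (ENSRNOG00000059837, chr5:107823330-107841175, minus strand) is the neighbour of Cdkn2b and encodes both p16INK4a and ARF, which a count per gene cannot separate. It had 0 counts in each normal liver, 1, 4 and 2 counts in the empty livers, and 0, 2 and 0 counts in the UTOpiA livers. Each empty liver was above each normal liver, with an exact permutation p of TPM of 0.1, the smallest possible, and UTOpiA livers overlapped with both groups. A count of 0 allows up to 3 counts in a library, for counting error only, and 2 of the 3 empty livers lay within that limit, so no fold is given.

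Mdm2 (ENSRNOG00000006304, chr7:60719066-60743328, minus strand) encodes the ligase of the p53 feedback loop. It was at 8.53, 9.75 and 11.5 TPM in normal livers, 13.9, 23.3 and 21.7 TPM in empty livers, and 17.6, 14.4 and 10.5 TPM in UTOpiA livers. Empty livers lay above normal livers in TPM but overlapped with them in CPM, and UTOpiA livers overlapped with both groups. The log2 fold change of empty versus normal livers was 0.45 ± 0.21 (edgeR adjusted p = 0.104), and 0.29 without empty replicate 2. On log2(TPM + 1) it was 0.89 (limma adjusted p = 0.013), which is 0.455 above the median shift of all genes. UTOpiA versus empty livers gave -0.27 with an interval of -0.74 to 0.21, and -0.11 without empty replicate 2, and UTOpiA versus normal livers gave 0.18 (edgeR adjusted p = 0.52).

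Ccng1 (ENSRNOG00000003256, chr10:25903911-25910325, minus strand), whose upstream decamer is the second of those shown, encodes cyclin G1, which recruits a phosphatase that activates MDM2. It was at 19.4, 20.0 and 22.3 TPM in normal livers, 42.3, 34.7 and 50.6 TPM in empty livers, and 24.1, 30.6 and 22.9 TPM in UTOpiA livers. The lowest empty liver was above the highest liver of both other groups. It was 1.44-fold higher in empty than in normal livers (log2 0.52 ± 0.15, edgeR adjusted p = 0.0157), and that p was 0.0558 to 0.0646 when empty replicate 3 or normal replicate 1 or 2 was left out. UTOpiA versus empty livers gave -0.52 ± 0.15 with an interval of -0.85 to -0.19 (edgeR adjusted p = 0.348), and -0.63 without empty replicate 2 (edgeR adjusted p = 0.0826). UTOpiA versus normal livers gave 0.01 with an interval of -0.32 to 0.34, and these livers overlapped in CPM but not in TPM.

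Gadd45a (ENSRNOG00000005615, chr4:97782512-97784842, minus strand), the third gene with a decamer shown, encodes a small protein induced by DNA damage and other stress that binds PCNA and p21. It had the highest mean TPM of the 9 genes in each group. The normal livers were at 65.9, 26.0 and 26.4 TPM, the empty livers at 48.0, 187 and 59.2 TPM, and the UTOpiA livers at 38.8, 42.9 and 31.0 TPM. Normal replicate 1 and empty replicate 2 were far above the other livers of their groups, and the UTOpiA livers were close together, with an SD of 0.06 in log2 CPM against a median of 0.30 for all genes. The log2 fold change of empty versus normal livers was 0.80 ± 0.55 (edgeR adjusted p = 0.256) and became -0.10 without empty replicate 2. UTOpiA livers were below the empty livers without overlap, by -1.20 ± 0.55 (edgeR adjusted p = 0.501), and by -0.30 without empty replicate 2. UTOpiA versus normal livers gave -0.40 (edgeR adjusted p = 0.595), which became 0.06 on log2(TPM + 1) and 0.19 without normal replicate 1.

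Gdf15 (ENSRNOG00000019661, chr16:20555395-20557978, plus strand) encodes a secreted cytokine of the TGF-beta family that is induced by cell stress. It was at 1.78, 2.97 and 7.89 TPM in normal livers, 4.95, 60.4 and 10.96 TPM in empty livers, and 5.48, 3.92 and 1.43 TPM in UTOpiA livers. One liver, empty replicate 2, was far above the rest, and all groups overlapped. The within-group SD of its log2 CPM was 1.04 in normal, 1.80 in empty and 0.74 in UTOpiA livers, above the medians of all genes (0.19, 0.29 and 0.30). The log2 fold change of empty versus normal livers was 2.07 ± 0.94 (edgeR adjusted p = 0.0982). It was 2.08 with DESeq2 (adjusted p = 0.0311) and 2.55 without empty replicate 1 (edgeR adjusted p = 0.0398), and both pass the threshold, whereas without empty replicate 2 it was 0.34 (edgeR adjusted p = 0.693). UTOpiA versus empty livers gave -2.67 with an interval of -4.85 to -0.49 (edgeR adjusted p = 0.423; DESeq2 adjusted p = 0.0768), and -0.94 without empty replicate 2 (edgeR adjusted p = 0.542). UTOpiA versus normal livers gave -0.60 ± 0.97, and 0.24 without normal replicate 3.

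Bax (ENSRNOG00000020876, chr1:101451802-101457207, minus strand) encodes a pore-forming protein that permeabilises mitochondria in apoptosis. It was at 16.2, 20.1 and 17.7 TPM in normal livers, 29.8, 35.1 and 35.2 TPM in empty livers, and 25.5, 23.9 and 19.3 TPM in UTOpiA livers. The empty livers were above both other groups, and the UTOpiA livers overlapped with the normal livers. The log2 fold change of empty versus normal livers was 0.37 ± 0.14 (edgeR adjusted p = 0.0579, and 0.045 with median-of-ratios factors). On log2(TPM + 1) it was 0.86 (limma adjusted p = 0.0025), which is 0.42 above the median shift of all genes. UTOpiA versus empty livers gave -0.34 with an interval of -0.66 to -0.02 (edgeR adjusted p = 0.462), and UTOpiA versus normal livers gave 0.03 with an interval of -0.30 to 0.35.

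**Figure D3:**
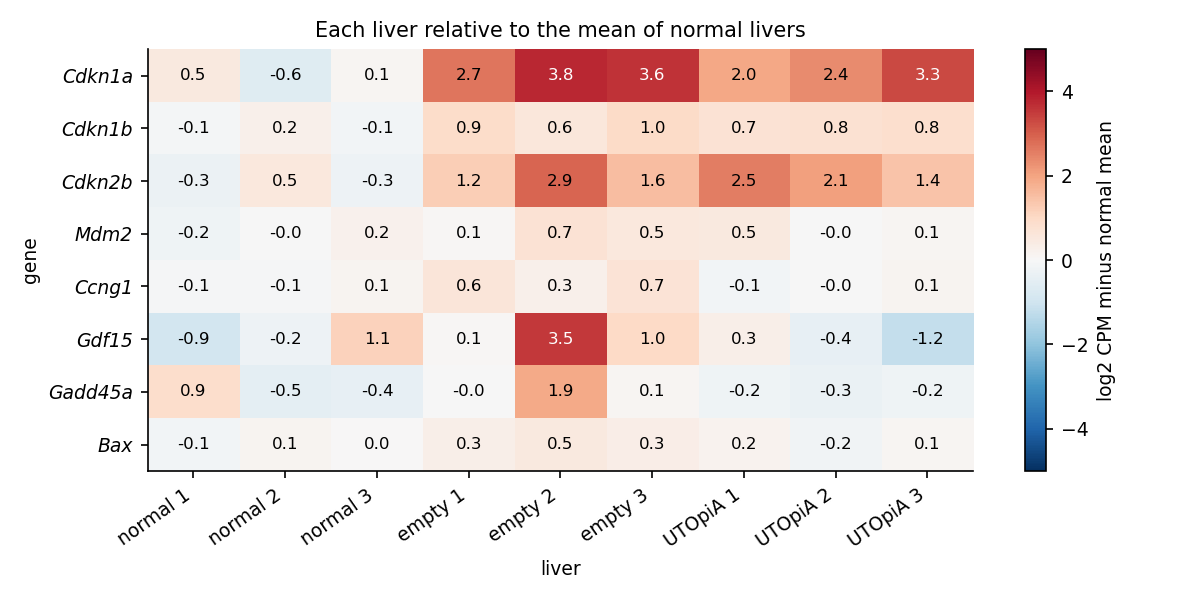
Log2 CPM of each tested gene in each of the 9 livers minus the mean of the 3 normal livers, with the value written in each cell. Empty replicate 2 holds the highest value of the row for 6 of the 8 genes, reaching 3.76 for Cdkn1a and 3.54 for Gdf15, while Cdkn1b and Ccng1 are highest in empty replicate 3.

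Empty replicate 2 had the highest log2 CPM of the 9 livers for 6 of the 8 genes, and for 13.4% of all genes tested. It was also highest for both other Gadd45 genes, for 4 of 8 genes of the integrated stress response and for 7 of 24 other p53 targets, and likewise for 4 of 6 cholangiocyte markers and 2 of 4 proliferation markers. It was highest for 1 of 7 hepatocyte markers, 0 of 5 neutrophil markers, 0 of 4 T cell markers and 0 of 2 other CDK inhibitors. Gadd45b, a stress gene induced by inflammatory signals, was at 282 TPM in that liver and at 37.7 and 36.3 TPM in the other empty livers. Atf3, an early stress transcription factor, was at 164 TPM there and at 2.62 and 7.06 TPM in the other empty livers. Ppp1r15a, also called Gadd34, was at 130 TPM there against 12.9 and 23.0 TPM. Without it, Cdkn1a and Cdkn2b were still called in empty versus normal livers, whereas the estimates of Gdf15 and Gadd45a were 0.34 and -0.10 on the log2 scale.

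The genes nearest in pattern were found by the root mean square (RMS) difference of mean-centred log2 CPM over the 9 livers, among 12995 genes. For Cdkn1a they were Ndrg1 (0.41), a hypoxia- and stress-responsive gene, Kif26b (0.46) and Mal (0.47), against a median of 1.55 for all genes. For Gdf15 they were Cxcl10 (0.63), an interferon-induced chemokine, Phlda1 (0.67) and Nfkbid (0.67), against a median of 1.43. For Mdm2 they were Zmym4 (0.14), Drosha (0.15) and Rfk (0.16), against a median of 0.53. Among the 8 genes themselves the closest pairs were Mdm2 with Bax (0.19) and Ccng1 with Bax (0.21), and the most distant pair was Cdkn1a with Gdf15 (1.65). Over all 12995 genes, Bax ranked 27 for Mdm2 and 222 for Ccng1. The measure is not scaled to the variation of a gene, so genes that vary little come out close. These values are descriptions over livers that share the group differences.

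Other p53 targets, taken from textbook knowledge, moved in both directions. Of 30 listed, 24 were tested. In empty versus normal livers 6 were called higher and 3 lower, 8 and 7 at any fold, beside the 20.7% and 11.1% of all genes called and the 26.9% and 21.5% at any fold given above, with 13 estimates above 0 and 11 below and a median log2 fold change of 0.15. Btg2, an antiproliferative target, rose from 5.74 to 8.88 TPM in normal livers to 145, 564 and 118 TPM in empty livers (log2 4.82 ± 0.69, edgeR adjusted p = 0.000743; log2 3.73 without empty replicate 2). Pmaip1, which encodes the BH3-only protein NOXA, rose from 0.0840 to 0.181 TPM to 1.60, 4.40 and 2.16 TPM (log2 3.82 ± 0.69, edgeR adjusted p = 0.00185). Fdxr, a mitochondrial reductase, fell by 1.85 ± 0.19 on the log2 scale, from 17.9 to 19.1 TPM in normal livers to 6.98, 8.14 and 7.05 TPM (edgeR adjusted p = 0.000139).

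In UTOpiA versus empty livers edgeR called 0 of these 24 targets and DESeq2 called 1 lower. At an unadjusted p under 0.05 there were 8, 4 lower and 4 higher, beside the 4.56% and 5.77% of all genes given above, and the median log2 fold change was 0.01, with 12 estimates on each side of 0. The gene called by DESeq2 was Aen, an exonuclease linked to apoptosis, which is named here after its values were seen. It was at 12.9, 16.9 and 19.4 TPM in empty livers and 6.92, 8.73 and 5.90 TPM in UTOpiA livers, without overlap (log2 -0.99 ± 0.17, edgeR adjusted p = 0.177; DESeq2 adjusted p = 0.000366). Without empty replicate 2 its edgeR estimate was -0.95. Among the targets with an unadjusted p under 0.05, Btg2 then went from -1.77 to -0.69 and Pmaip1 from -1.78 to -1.22. Fdxr, which was higher in UTOpiA, went from 0.52 to 0.60. Targets at an unadjusted p were not counted without that liver. In UTOpiA versus normal livers 4 of the 24 were called higher and 2 lower, beside 18.2% and 6.81% of all genes.

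**Figure D4:**
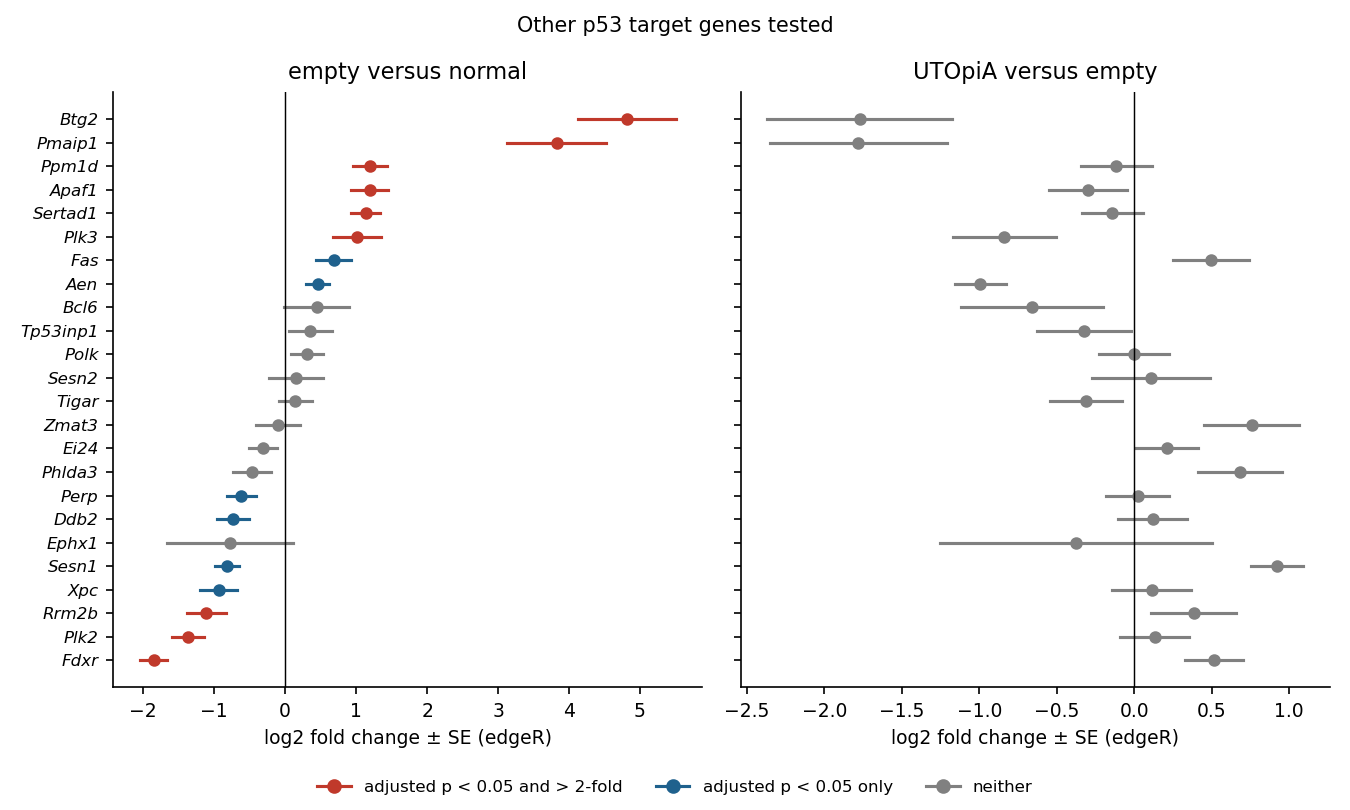
Log2 fold changes with SE from edgeR for the 24 other p53 targets tested, in empty versus normal and in UTOpiA versus empty livers (3 livers per group), ordered by the former. Red points passed an adjusted p of 0.05 and 2-fold, and blue points the adjusted p only. In the left panel 6 red points are above 0 and 3 below, and the right panel has none.

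Of the other CDK inhibitors, Cdkn2c (p18INK4c) rose in empty livers (log2 1.18 ± 0.35, edgeR adjusted p = 0.0184), a call lost without empty replicate 3 or normal replicate 1 or 2, and Cdkn1c, at 0.284 to 1.67 TPM in the 9 livers, was not called. Among 15 cyclins, CDKs and pocket proteins 3 were called higher, near the 20.7% of all genes, namely Ccna2 (log2 2.35), Ccnb1 (2.28) and Cdk1 (1.58), which serve S phase and mitosis. The call of Cdk1 was lost without empty replicate 2 or 3 or normal replicate 1 or 2, and a filter of 10 counts in every library left all 3 genes untested. In that list Rb1, the retinoblastoma gene, was called lower (-1.08), a call lost without empty replicate 3 or normal replicate 2, with limma on TPM and under that filter. Proliferation markers were called higher in 2 of 4 tested, against the same share of all genes. Cdkn1a, Cdkn2b and Cdkn2c and the cyclins of dividing cells named above were higher in the same bulk tissue, which does not show whether they were so in the same cells.

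Gadd45b rose in empty livers (log2 7.15 ± 1.04, edgeR adjusted p = 0.000886), and its estimate was 5.44 without empty replicate 2. DESeq2 gave a like estimate for it (7.17) but no p, in any comparison, and it was not tested with a filter of 10 counts in every library. Gadd45g, at 0.98 ± 0.81, was not called and was at -0.71 without empty replicate 2. Of 9 other BCL2 family genes 5 were called higher and 0 lower, beside 20.7% and 11.1% of all genes, led by Bok (log2 5.77), a relative of Bax, and by Bcl2a1 (3.37), an antiapoptotic gene of leukocytes. Of 8 integrated stress response genes 3 were called higher, against the same 20.7%, namely Atf3 (5.25), Ppp1r15a (3.79) and Ddit3 (1.62). Without empty replicate 2 these were 1.60, 2.12 and 1.89 and were still called. DESeq2 gave no p for Atf3 in any comparison, and its edgeR call was lost when any 1 normal liver was left out. In UTOpiA versus empty livers edgeR and DESeq2 called 0 genes in each of these lists. Both Gadd45 genes and 4 of the 8 stress response genes had an unadjusted p under 0.05 there, all lower, beside 4.56% of all genes, and the 8 stress response genes and both Gadd45 genes all had estimates below 0. Without empty replicate 2, 6 of the 8 and both Gadd45 genes did. The estimate then went from -2.83 to -1.12 for Gadd45b, from -1.96 to -0.28 for Gadd45g and from -2.14 to -0.47 for Ppp1r15a. That of Atf3 went from -2.94 to 0.70. Counts at an unadjusted p were not made without that liver.

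Markers of liver cell types moved strongly between normal and ACLF livers, and in bulk tissue fewer cells of a type and less RNA per cell cannot be told apart. Hepatocyte markers summed to 142000 to 153800 TPM in normal livers, 20420 to 47020 TPM in empty livers and 21720 to 42940 TPM in UTOpiA livers, and 5 of 7 were called lower in empty livers. Cholangiocyte markers summed to 14.5 to 24.8 TPM in normal livers, 304 to 610 TPM in empty livers and 128 to 389 TPM in UTOpiA livers, and 6 of 6 were called higher. Neutrophil markers summed to 2.25 to 5.24, 185 to 1107 and 174 to 507 TPM, and 5 of 5 tested were called higher, with Mpo at 0 or at most 0.108 TPM in all livers. The hepatocyte sum was lower, and the cholangiocyte and neutrophil sums higher, in every ACLF liver than in every normal liver, and Cdkn1a, Cdkn1b and Cdkn2b were likewise higher in each of them.

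Beside the 20.7% of all genes called higher and 11.1% called lower in empty livers, among stellate cell and fibroblast markers 5 of 6 were called higher, among macrophage markers 5 of 6, among T cell markers 3 of 4, among endothelial markers 1 higher and 1 lower of 4, and among B cell markers 0 of 2 tested, with 0 at an unadjusted p under 0.05. In UTOpiA versus empty livers edgeR and DESeq2 called 0 markers of any type, and 1 hepatocyte marker had an unadjusted p under 0.05. The estimates of all 6 cholangiocyte markers (median log2 fold change -0.59) and all 5 neutrophil markers tested (-0.64) were below 0 there, as those of the 8 genes were, and 6 of 7 hepatocyte markers were above 0 (0.47). Without empty replicate 2, which had the highest hepatocyte and the lowest neutrophil sum of the empty livers, these directions were the same and the medians were -0.48 for cholangiocyte, -1.10 for neutrophil and 1.02 for hepatocyte markers. The part of the cell makeup in the values of the 9 genes was not tested.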

How the data were processed

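The authors trimmed reads, aligned them with HISAT2, counted them per gene with featureCounts, and deposited whole-number counts and TPM per liver. The study's methods name Cutadapt, the MGIEasy directional kit and the mouse build GRCm38, whereas the submitters' notes and labels name Trimmomatic, NEBNext kits and rn6, and the tables list rat Ensembl genes. The strand setting and the gene lengths behind the deposited TPM are not given in the sources used here. The counts were tested in edgeR 4.0.16 under R 4.3.3 with filterByExpr, TMM and the two-sided quasi-likelihood test, fitting all 9 libraries with 1 mean per group. Alternatives were DESeq2 1.42.0, which the study used, limma 3.58.1 on log2(TPM + 1) or log2(TPM + 0.1), filtered at a mean of 1 TPM or unfiltered, median-of-ratios factors, other count filters (none, or 10 counts in each library), a call without the fold, fits of only the 6 libraries compared, a replicate block, and each library left out. TPM values and ratios were compared by a two-sided exact permutation test. Only the edgeR test was tried on simulated counts, for empty versus normal livers. The genes described and all gene lists were chosen with earlier results of these data known. From each further list at most 3 called genes, those changed most in empty versus normal livers, are named, with any gene called in UTOpiA versus empty livers, and 1 list is not reported here. Aen, which only DESeq2 called in the latter, and, outside this rule, Cdkn1c, Gadd45g, Rb1 and the markers Alb and Mpo are named after their values were seen. Likeness was computed among tested genes with a mean of at least 1 CPM. Of 130 listed symbols outside the 9 genes, 8 were not matched and are not analysed here. The labels number the livers as biological replicates.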

Additional observations from a re-analysis of the deposited data

How the results depend on the processing

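The calls of Cdkn1a in both comparisons with normal livers, and of Cdkn2b in empty versus normal livers, held under all 19 alternatives. With no fold-change threshold a call could not be lost, so that this setting is no test of them. The call of Cdkn2b in UTOpiA versus normal livers was lost by limma on log2(TPM + 1) with no filter (1.12, adjusted p = 0.0587). Members called higher in empty versus normal livers numbered 4 by limma at either pseudocount or with no filter and with no fold-change threshold, and 2 to 3 with 1 library left out. In UTOpiA versus empty livers 0 members were called under any alternative, although over all genes edgeR made 26 calls upward and 22 downward once empty replicate 2 was removed, and 32 and 17 once UTOpiA replicate 2 was. Of the other p53 targets, those lower in empty versus normal livers numbered 1 in the 3 limma settings, 7 with no fold-change threshold and 2 to 4 with 1 library left out. Those higher in UTOpiA versus normal livers numbered 2 to 5 with 1 library left out (2 without normal replicate 2), and those lower numbered 0 by limma on log2(TPM + 1) with or without a filter, 1 on log2(TPM + 0.1) and 5 with no fold-change threshold. DESeq2 called 1 lower in UTOpiA versus empty livers. Correlations of deviations were -0.18 to 0.06 between livers of the same replicate number and -0.19 to 0.29 between those of different numbers. They gave no sign that the numbers pair the livers, but with 3 livers per group they cannot exclude it. With the replicate block 2 members were again called higher in each comparison with normal livers and 0 in UTOpiA versus empty livers. Estimates near 0 changed sign. In UTOpiA versus normal livers Bax ranged from -0.044 (UTOpiA replicate 1) to 0.124 with 1 library left out, and was also below 0 with normal replicate 1 (-0.043) or UTOpiA replicate 3 (-0.0055) left out. Ccng1 was -0.00042 with DESeq2, -0.0000032 with median-of-ratios factors, and -0.068 (UTOpiA replicate 3) to 0.076 with 1 library left out, including -0.035 (normal replicate 1) and -0.027 (normal replicate 2). Gadd45a was 0.064, 0.06 and 0.06 by limma and -0.636 to 0.192 (normal replicate 1) with 1 library left out, and Gdf15 -1.048 to 0.236 (normal replicate 3). In UTOpiA versus empty livers Cdkn1b was -0.169 to 0.023 (empty replicate 3) with 1 library left out, and Cdkn2b was 0.117 with the block and -0.326 to 0.692 (empty replicate 2) with 1 library left out, above 0 also for UTOpiA replicate 2 (0.0026) or 3 (0.227). Gadd45a in empty versus normal livers was -0.096 (empty replicate 2) to 1.387 with 1 library left out. The causes were not tested. Where 1 group kept 2 livers, the spread was shared by all groups. At 0 to 4 counts Cdkn2a is limited by depth.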
